A study of Drosophila melanogaster with 2 samples.

Results

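Distal peaks of Krüppel (Kr) inside genes are ChIP-seq peaks whose summit lay over 2000 bp from the transcription start site (TSS) of every protein-coding gene and within the body of at least 1 such gene. There were 617 of them among the 2102 peaks of the authors' list thresholded by irreproducible discovery rate (IDR), on the dm6 build of the Drosophila melanogaster genome. The embryos were whole animals, male and female together, aged 0 to 10 h, from 1 transgenic line that stably carried Kr fused at its C terminus to GFP, by an insertion that per the labels targets Kr. The labels do not say whether untagged Kr was also present. Sonicated chromatin was precipitated with an antibody to GFP. There was 1 group with 2 biological replicates, numbered 2 and 3, and no other genotype, treatment or stage, and the control file was not analysed here. Each replicate and the pooled reads had a permissive list of 30000 peaks, and the IDR list was made from both replicates. Peak height is the authors' signal value, whose scale is not given, and the files hold no read counts, so sequencing depth is unknown. Intervals below are 95% intervals for counting error only, and the spread between biological samples rests on the 2 replicates.

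Kr is a zinc-finger protein of the gap class, which acts mostly as a repressor and divides the early embryo into domains. It acts again in the nervous system, where it is one of the factors that neural stem cells express in sequence. Many enhancers of fly developmental genes lie in introns, often in the first and longest ones, and an enhancer inside one gene can serve another. The embryos were whole and of all these stages, so a peak here is an average over cell types and ages. Occupancy of a site in few cells and weak occupancy in many cannot be told apart.

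The Kr core word used here was AAGGGTT, sought on both strands within 100 bp of the summit, and 81 of the 617 peaks held it (13.1%, Wilson interval 10.7 to 16.0). Of all tiles of the distal gene body of the same length, 2.06% held it. To show what such sites look like, 6 of the highest peaks with the word outside the arm that carries Kr are given first, as bases of the RefSeq dm6 genome on its plus strand around the summit, with the word, or its reverse complement AACCCTT, in capitals. They come from pdm2, a POU-domain gene of the neuroblast series (chr2L:12682018-12682138), Pits, whose protein binds the repressors Ttk and Sin3A (chrX:12580387-12580507), N, the receptor Notch (chrX:3142164-3142284), ham, a zinc-finger gene of neuronal fate (chr2L:18785178-18785298), pum, a translational repressor (chr3R:9145230-9145350), and abd-A, a Hox gene (chr3R:16819613-16819733). The last 3, from nyo, a zona pellucida domain gene of the apical matrix (chr3R:31551095-31551215), nAChRalpha3, a nicotinic acetylcholine receptor subunit (chrX:8295963-8296083), and Rbfox1, an RNA-binding splicing regulator (chr3L:10519077-10519197), are the highest peaks without the word outside the same arm.
pdm2: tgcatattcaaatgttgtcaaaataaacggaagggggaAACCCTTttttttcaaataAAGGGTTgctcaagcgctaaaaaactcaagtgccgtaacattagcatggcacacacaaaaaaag
Pits: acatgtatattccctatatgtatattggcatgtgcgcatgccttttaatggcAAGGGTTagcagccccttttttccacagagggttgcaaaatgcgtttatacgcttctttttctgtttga
N: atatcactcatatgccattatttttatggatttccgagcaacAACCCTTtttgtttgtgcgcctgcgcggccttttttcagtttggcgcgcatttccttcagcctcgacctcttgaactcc
ham: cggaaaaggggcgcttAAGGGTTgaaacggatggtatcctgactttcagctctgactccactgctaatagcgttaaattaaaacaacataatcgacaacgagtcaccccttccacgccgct
pum: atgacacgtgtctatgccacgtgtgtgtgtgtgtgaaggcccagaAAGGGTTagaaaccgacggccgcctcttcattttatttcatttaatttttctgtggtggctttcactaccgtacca
abd-A: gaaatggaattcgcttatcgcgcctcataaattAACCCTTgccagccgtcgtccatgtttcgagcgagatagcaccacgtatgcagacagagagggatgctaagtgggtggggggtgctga
nyo: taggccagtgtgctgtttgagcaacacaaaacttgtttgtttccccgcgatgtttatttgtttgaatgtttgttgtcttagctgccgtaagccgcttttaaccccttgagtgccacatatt
nAChRalpha3: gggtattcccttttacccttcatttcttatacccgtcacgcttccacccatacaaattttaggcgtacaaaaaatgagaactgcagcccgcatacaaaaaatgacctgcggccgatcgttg
Rbfox1: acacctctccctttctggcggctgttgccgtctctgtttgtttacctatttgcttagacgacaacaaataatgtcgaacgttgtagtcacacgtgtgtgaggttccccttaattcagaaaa

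Of these sites, that in pdm2 had a signal of 122.6 in replicate 2 and 137.4 in replicate 3, Pits 163.6 and 94.0, and N 156.6 and 96.8. The site in ham had 159 and 79.5, that in pum 130.1 and 92.9, and that in abd-A 121 and 86.8. Replicate 3 was the higher one at pdm2 alone of these 6. The pdm2 stretch held the word in both orientations, with centres 19 and 0 bp from the summit. Without the word, nyo had 362.2 and 238.2, nAChRalpha3 349.1 and 226.3, and Rbfox1 267.9 and 228.1, so all 3 stood above all 6 sites with the word in both replicates. The sites without the word are the highest of their kind, but those with the word were not picked by signal alone. Bicra, wb and nkd, with IDR signals of 262.8, 253.7 and 238.3, stood above pum (215.8) and abd-A (199.5) and are not printed. In these 3 the word lay farther from the summit than in the 6 printed, so the printed sites do not show the usual distance. The order of signals is a description of the printed sites only.

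A summit within 250 bp was found in the permissive list of replicate 2 for 613 members and of replicate 3 for 614, and in both for 610. The IDR list was made from both replicates, so such matches are largely fixed by the choice of members and are no independent support. In replicate 2 their signals had a median of 84.9 and ran from 37.2 to 992.9, and in replicate 3 they had a median of 55.6 and ran from 14.8 to 517.9. Replicate 2 was higher at 525 of the 610, with a median ratio of 1.56 (SD of the log2 ratio 0.591), which holds the difference in scale between the lists. Spearman's rho across the 610 was 0.370, and across the distal intergenic peaks 0.374, given without p because peaks share libraries. The 2102 highest peaks of replicate 2 and those of replicate 3 both included 355 members (57.5%, 53.6 to 61.4), beside 58.6% (54.1 to 63.0) of distal intergenic peaks. Close summits can share a replicate peak, which held for 8 members in replicate 2 and 14 in replicate 3. In the IDR list the members had a median signal of 133.6, from 103 to 1514. Among its 100 highest peaks were 29 members, near their share of 29.4% of the whole list.

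**Figure D1:**
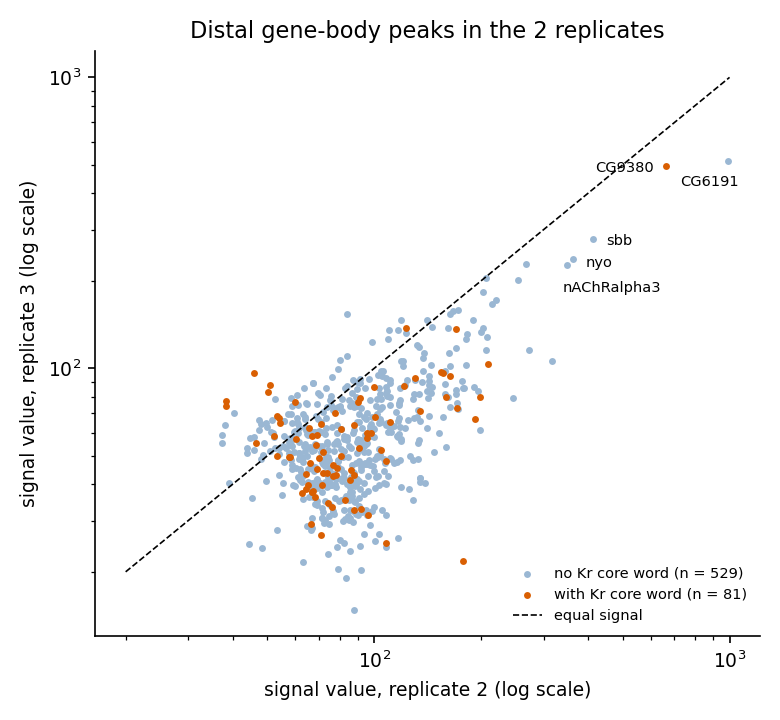
Signal value of each distal gene-body peak in replicate 2 (horizontal, log scale) and replicate 3 (vertical, log scale), for the 610 peaks matched in both. Each point is a peak, coloured by the Kr core word within 100 bp of its summit; the dashed line is equal signal, 525 points lie below it, and the 5 highest peaks carry the name of their host.

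The 617 members were 29.4% of the IDR list (27.5 to 31.3), and by the same distances the 2102 highest peaks of replicate 2 gave 636 (30.3%) and those of replicate 3 gave 584 (27.8%). Distal gene bodies made up 41.1% of the bases of the chromosome arms. The members thus had a density of 10.9 per Mb (10.1 to 11.8), against 12.8 per Mb (11.7 to 14.0) for the 471 peaks of distal intergenic sequence, a ratio of 0.850 (0.753 to 0.961). The ratio was 0.992 (0.867 to 1.14) when the TSSs of non-coding genes were also used. By rank in the pooled list, distal gene bodies held 28.6% of peaks 1 to 500 and 38.4% of peaks 20001 to 30000, nearer to their share of bases. Just beyond the distance limit lay peaks in Traf4, 2003 bp from a TSS with a signal of 130.1, and in Trl, 2007 bp away with 110.7. Just within it lay peaks in Kdm4B, 1994 bp away with 250.8, and in CG1677, 1980 bp away with 142.

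**Figure D2:**
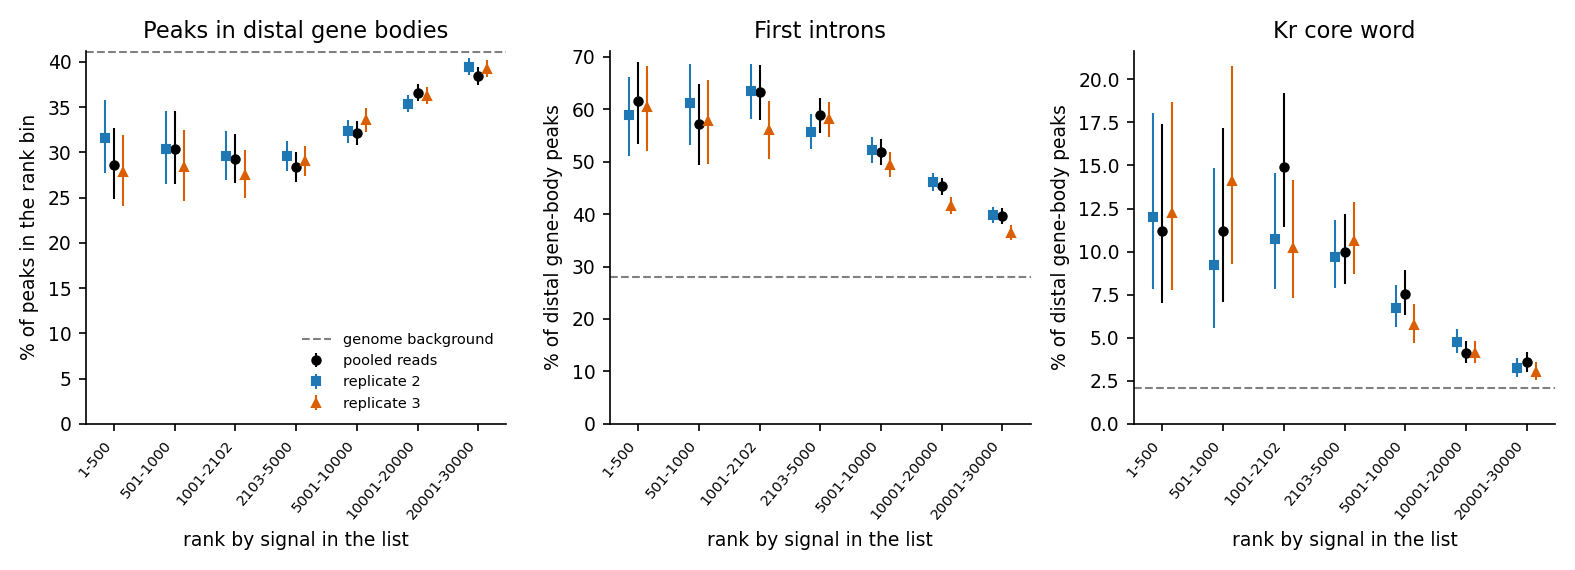
Peaks by rank of signal (horizontal) in the pooled list and in each replicate's own list. The vertical axes give the percent of all peaks of a rank bin that lay in distal gene bodies, and of those the percent in a first intron and with the Kr core word within 100 bp; bars are Wilson 95% intervals and dashed lines the share of bases, or of tiles of the window's length, with the feature (41.1%, 28.1% and 2.06%).

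The highest members lay in genes of many kinds. The highest of all was shared by CG6191 and CG45088 (2R, 13584137 to 13585018), in intron 2 of CG6191 and 8729 bp from the nearest TSS. Its signal was 992.9 in replicate 2, where it ranked 2, and 517.9 in replicate 3, where it ranked 3. Next came a peak in intron 2 of CG9380 (2R, 25215126 to 25215555), with 663.6 and 496.8. Kr is nested within CG9380, and its TSS was the nearest. A peak in sbb (2R, 18336936 to 18337331), which encodes the co-repressor Brakeless, had 414.1 and 278.4 and lay 20107 bp from any TSS. After nyo, nAChRalpha3 and Rbfox1, whose sites are printed above, came Dys, the dystrophin gene (3R, 19584880 to 19585195), with 254.8 and 201.4. Its peak was in intron 25 of 33 of the longest transcript and in the first intron of a shorter one. Pde1c, a cyclic nucleotide phosphodiesterase gene, had a peak in a coding exon (2L, 11816450 to 11816690) with 207.1 and 204.2, nearly equal in the replicates. A further CG9380 peak (2R, 25192360 to 25192474) had 317.5 and 106, and one in the 3′ UTR of CG16989 (X, 796627 to 796741) had 219.8 and 171.5. All 10 were higher in replicate 2, 1 of the 10 held the core word, and 2 lay in a first intron.

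Nearly all members were intronic. Of the 617 summits, 603 (97.7%, 96.2 to 98.6) lay in an intron outside every exon of the host, whereas introns made up 76.4% of distal gene-body bases. The share was 97.8% and 97.6% in the lists of replicates 2 and 3. The density was 13.9 per Mb of intron (12.9 to 15.1) and 1.05 per Mb of exon (0.574 to 1.76). The 14 exonic summits, named here after their values were seen, comprised 5 in coding exons, 5 in 5′ UTRs and 4 in 3′ UTRs. Those in coding exons were in Pde1c, otp, hth, CG42342 and pyd. The peak in otp, a homeobox gene of the hindgut and brain (2R, 20884517 to 20884693), had 116.9 and 135.1 in the replicates, and that in hth (3R, 10604870 to 10605309) had 84.1 and 39.9. The 3′ UTR peak of pros, a homeobox gene of neural differentiation (3R, 11392765 to 11393204), had 102.8 and 95.01. Down the ranks of the pooled list the intronic share of distal gene-body peaks was 97.2% at ranks 1 to 500 and 81.2% at ranks 20001 to 30000, close to the share of bases.

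First introns held most members. In the first intron of at least 1 host transcript lay 379 summits (61.4%, 57.5 to 65.2), with 61.8% and 57.5% in the lists of replicates 2 and 3. First introns were 28.1% of distal gene-body bases. The density there was 23.9 per Mb (21.5 to 26.4), against 8.20 per Mb (7.16 to 9.34) for the 224 summits in later introns. Counting the longest transcript of each host alone, 276 members (44.7%, 40.8 to 48.7) lay in its first intron, which held 19.5% of bases. First introns lie nearer to start sites, so the shares were also taken by distance. The share in first introns was 65.5% at 2 to 5 kb from the nearest TSS, 63.3% at 5 to 10 kb, 49.6% at 10 to 20 kb and 61.4% beyond 20 kb. The matching shares of bases were 32.2%, 33.8%, 29.0% and 14.1%, below the members' interval in each of these 4 bands. Median signals were 84.3 and 55.04 in replicates 2 and 3 for first introns and 86.3 and 57.7 for later ones, each within the quartiles of the other. In the pooled list the first-intron share of distal gene-body peaks was 61.5% at ranks 1 to 500, 51.9% at ranks 5001 to 10000 and 39.6% at ranks 20001 to 30000, and the lists of both replicates ended lower than they began too (58.9% to 39.8% and 60.4% to 36.5%).

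Members lay in introns with a median of 14211 bp, though not most densely in the longest ones. Long introns were also much of the background. Introns of 10 to 20 kb held 27.4% of intronic members and 22.0% of intronic bases of distal gene bodies. Those of 20 to 50 kb held 27.7% and 24.95%, and those over 50 kb 10.45% and 18.45%. Introns under 2 kb held 15 members at 3.65 per Mb (2.04 to 6.01), and introns of 5 to 10 kb held 139 at 21.8 per Mb (18.3 to 25.7). Introns over 50 kb held 63 at 7.90 per Mb (6.07 to 10.1). The same held for distance. The density was 13.0 per Mb at 2 to 5 kb from a TSS (258 members), 13.9 at 5 to 10 kb (196), 11.4 at 10 to 20 kb (119) and 3.62 beyond 20 kb (44 members, 2.63 to 4.85). With each host split into 10 equal parts from 5′ to 3′, parts 2 and 3 held 14.9% and 14.1% of members, where 10.4% and 10.6% of the hosts' distal bases lie. Part 10 held 16 members, 2.59% (1.60 to 4.17), with 9.80% of the bases.

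**Figure D3:**
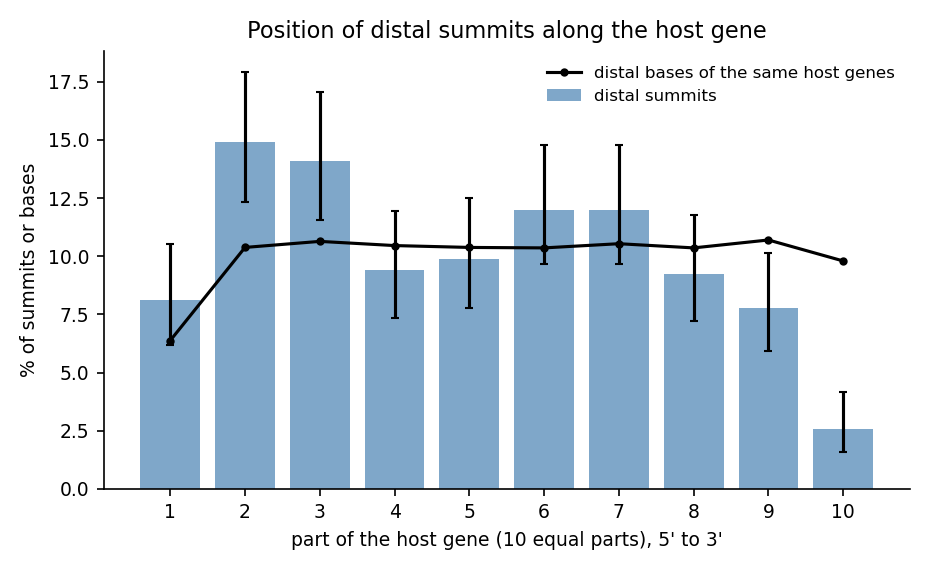
Percent of the 617 distal summits in each of 10 equal parts of the host gene from its 5′ to its 3′ end (bars, with Wilson 95% intervals), beside the percent of the distal bases of the same host genes (line). Parts 2 and 3 hold 14.9% and 14.1% of summits and part 10 holds 2.59%, where the bases give 10.4%, 10.6% and 9.80%.

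The members lay in 330 host genes. Of the 13968 protein-coding genes, 5729 had any base that far from all TSSs and so could be hosts, and 5.76% of these were. Of the hosts, 198 held 1 summit, 132 held at least 2 and 13 held at least 5, and the 10 with the most held 103 members (16.7%). In the replicates' own lists there were 327 and 326 hosts, and 244 of the 330 (73.9%) were hosts in both of these lists and 5 in neither. Among the 132 with at least 2 summits, 127 were hosts in both. The IDR list was made from these replicates, so this overlap is partly fixed by the choice of members. Some 17 members lay in more than 1 gene and count for each.

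Host genes were long. Their median length was 30895 bp (interval 26944 to 34579, range 3915 to 394149), against 6168 bp for all genes that could be hosts. Of genes under 10 kb, 27 of 3747 were hosts (0.721%), and the share was 9.87% at 10 to 25 kb, 16.5% at 25 to 50 kb, 31.4% at 50 to 100 kb and 39.1% (34 of 87) above 100 kb. Longer genes offer more distal sequence, and per Mb of it the density did not follow length in the same way. It was 4.50 per Mb (3.06 to 6.38) in genes under 10 kb, 14.7 (12.5 to 17.1) at 10 to 25 kb, 11.7 at 25 to 50 kb, 13.5 at 50 to 100 kb and 7.29 (5.95 to 8.84) above 100 kb. The longest host was kirre, a myoblast fusion receptor gene of 394149 bp, with 3 summits, and the shortest was CG16989.

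Promoters of the hosts were read next. An IDR summit within 500 bp of an own TSS was present at 87 of the 330 hosts (26.4%, 21.9 to 31.4) and at 317 of the 5399 other genes with distal body bases (5.87%, 5.28 to 6.53). Promoter summits were no part of the choice of members. Within length classes the shares were 14.8% and 5.08% under 10 kb, 20.9% and 8.10% at 10 to 25 kb, and 26.5% and 7.84% at 25 to 50 kb. They were 33.8% and 4.52% at 50 to 100 kb, and 38.2% and 5.66% above 100 kb, hosts first. Hosts had the higher share in all 5 classes. Genes are no replicates, peaks of both kinds come from the same libraries, and no test was made.

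**Figure D4:**
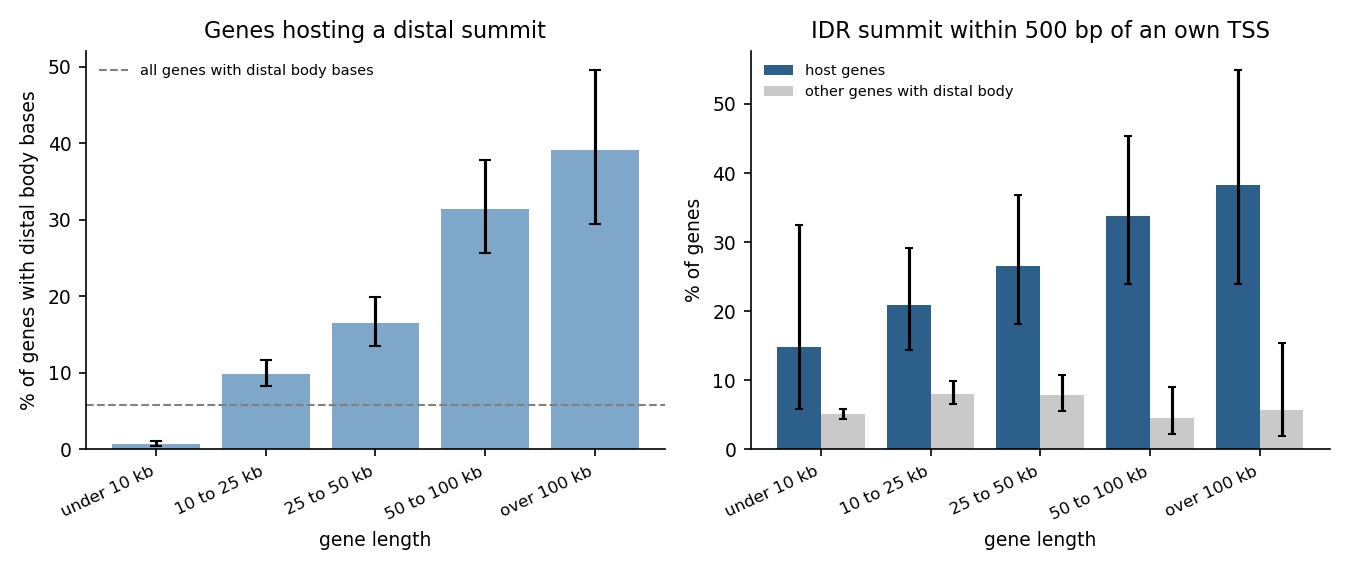
Left, the percent of genes with distal body bases that hosted a distal summit, by gene length, with the 5.76% of all such genes dashed. Right, the percent of hosts and of other such genes with an IDR summit within 500 bp of an own TSS, by gene length; bars on both sides carry Wilson 95% intervals, and hosts stand at 14.8% to 38.2%, the others at 4.52% to 8.10%.

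The host with the most summits was CG9380 (2R, 25183628 to 25255318), with 27, at 21 sites over 500 bp apart. In the replicates' own lists it had 31 and 23, and 22 of the 27 stood among the highest 2102 in both. Signals in replicate 2 ran from 48.2 to 663.6 with a median of 130.2, and in replicate 3 from 21.9 to 496.8 with a median of 59.9. Replicate 2 was the higher at 25 of the 26 summits read in both. For 10 of the 27 the nearest TSS was that of Kr, for 14 that of CG9380 and for 3 that of CG30429. Of the 10 nearest to Kr, the highest (2R, 25215126 to 25215555) was 11275 bp from its TSS, and the next (2R, 25212575 to 25213014) was 13816 bp away with 245.5 and 78.9 in the replicates. The core word was present at 3 of the 27, with 2 copies at the peak from 25202447 to 25202886, and none of the 27 lay in a first intron. The longest run of members with gaps under 10 kb was also here, 23 summits over 25.7 kb. Kr lies in this locus, and the labels say only that the insertion targets Kr. Whether the tagged copy adds to the signal at this locus was not tested. Without the peaks within 20 kb of Kr, 124 members stayed on 2R and its density was 12.9 per Mb in place of 14.3.

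The second host was jing (2R, 6502006 to 6621792), a zinc-finger gene needed in trachea and central nervous system, with 19 summits, and 19 and 16 in the lists of the replicates. Its highest peak (2R, 6605956 to 6606144) had 189.8 and 146.3, and its lowest signals were 60.6 in replicate 2 and 26.8 in replicate 3. All 19 lay in a first intron, 5 held the core word, and 12 had CG15233 as the nearest TSS, a gene nested in jing. A run of 10 summits covered 22.2 kb. The cofactor gene hth (3R, 10507561 to 10639568), whose homeodomain protein partners the Hox proteins, had 10 summits, 5 in a first intron and none with the word. Its signals ran from 58.2 to 110.9 in replicate 2 and from 29.0 to 89.3 in replicate 3. It held the member farthest from any TSS, at 86609 bp (3R, 10521178 to 10521617), with 69.0 and 75.8. The gene sbb had 9, all in a first intron, 3 of them with the word, with medians of 83.7 and 70.3 in the replicates.

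The other hosts among the 10 with the most summits had 6 or 7. The gene tna, which interacts genetically with the Brahma remodelling complex, had 7, all in a first intron, with medians of 60.02 and 54.1 in replicates 2 and 3. The gene tara, a trithorax-group member, also had 7 in a first intron, with medians of 74.7 and 58.6. Ten-m, a teneurin of cell adhesion, had 6 in the IDR list, 5 in the list of replicate 2 and 2 in that of replicate 3, and all 6 were higher in replicate 2 (medians 69.8 and 43.7). The wing vein gene px had 6 with medians of 90.7 and 67.5, the Hox gene Antp 6 with 85.2 and 50.3, and CG33158 6 with 93.2 and 54.0. Of these 10 hosts, 6 also had an IDR summit at an own promoter. In CG33158, 3 of the members lay within aos as well, which encodes the secreted EGF receptor inhibitor Argos.

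Gene lists, drawn up with earlier results of these data known, showed which kinds of gene were hosts, and each share stands beside the 5.76% of all genes that could be hosts and the density of 10.9 per Mb. Lists differ in gene length and were not tested. Of segmentation genes 9 of 34 were hosts (26.5%, 14.6 to 43.1), with 62.1 summits per Mb. The highest was at cic (3R, 20276005 to 20276444), a repressor downstream of receptor tyrosine kinases, with 169.6 and 84.0 in replicates 2 and 3. The Wnt feedback gene nkd had 171.1 and 73.0 at its highest of 4 summits, the Hedgehog receptor gene ptc 98.8 and 122.8, and cad, the posterior homeobox gene, 104.9 and 98.3. Hox genes and cofactors were hosts in 6 of 12 cases, with 56.8 per Mb, and without hth and Antp in 4 of 10, with 39.2 per Mb. Among them lab had 129.2 and 81.9 at its highest peak, Antp 108 and 86.5, abd-A the values given with its sequence, and hth 110.9 and 89.3.

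Of neural transcription factor genes 9 of 33 were hosts (27.3%, 15.1 to 44.2), with 25.4 per Mb. After pdm2 came grh, an epidermal and late neuroblast factor, with 120.9 and 106.2, pros with its 3′ UTR peak, and chn with 139.4 and 40.4. Nuclear receptor and ecdysone-response genes, with a median length of 27323 bp, were hosts in 6 of 22 cases (27.3%, 13.1 to 48.1). They had 19.6 per Mb (10.1 to 34.15), an interval that spanned the 10.9 of all distal gene bodies. Their highest peaks were in Eip75B (105.7 and 97.6), Hr4 (83.0 and 85.5), Hr3 (73.0 and 85.3) and EcR, the ecdysone receptor (108 and 24.4). Co-repressor, pioneer and chromatin genes had 7 of 27 hosts and 84.6 per Mb, but without jing, sbb and tara 4 of 24 and 22.7 per Mb (9.14 to 46.8). The histone methyltransferase gene trx had 101.7 and 78.3, and Smr, a co-repressor of nuclear receptors, 76.3 and 93.2.

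Signalling genes had 16 hosts of 44 (36.4%, 23.8 to 51.1), with 47.0 summits per Mb. Among ligands, vn, an activator of the EGF receptor (3L, 5824156 to 5824347), had 202.2 and 183.7 in its first intron. Among receptors, InR, the insulin receptor (3R, 21613308 to 21613747), had 140.5 and 147, N the values given with its sequence, and fz, a Wnt receptor (3L, 14303862 to 14304301), 131.9 and 120.3. Axon guidance and cell adhesion genes had 16 hosts of 42 (38.1%, 25 to 53.2), but their median length was 40274 bp and their density of 15.1 per Mb (10.4 to 21.1) spanned the 10.9 of all distal gene bodies. The Netrin receptor genes fra (177.4 and 85.3) and unc-5 (172.7 and 72.4), Ten-m (181.6 and 102.8) and CadN, the neuronal cadherin (171.5 and 75.8), led this list, and replicate 2 was the higher at all 4.

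Ion channel and receptor genes, with a median length of 48640 bp, were the longest of the lists and had 1 host of 33 (3.03%, 0.537 to 15.3). That was nAChRalpha3, with 2 summits, and the density was 1.59 per Mb (0.193 to 5.75), whose upper bound is under 10.9. Muscle and mesoderm genes had 4 hosts of 23 (17.4%) and 13.0 per Mb (4.79 to 28.4). They were bowl (140.8 and 62.3), mbc (118 and 63.0), kn (98.0 and 60.5) and Mef2, the muscle MADS-box factor (68.9 and 41.6). The list as drawn up counts bowl, an odd-skipped family gene not particular to muscle, which held 2 of the 6 summits. Gut, tracheal, salivary and blood genes had 3 of 18 and 45.0 per Mb (18.1 to 92.7), in ush (110.4 and 136), rib (94.4 and 85.8) and srp (73.0 and 43.8), and 5 of their 7 summits lay in ush, a cofactor of GATA factors. Ribosomal protein genes had 0 hosts of the 7 that could be, and odorant and gustatory receptor genes 0 of 10, too few and too short to read.

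**Figure D5:**
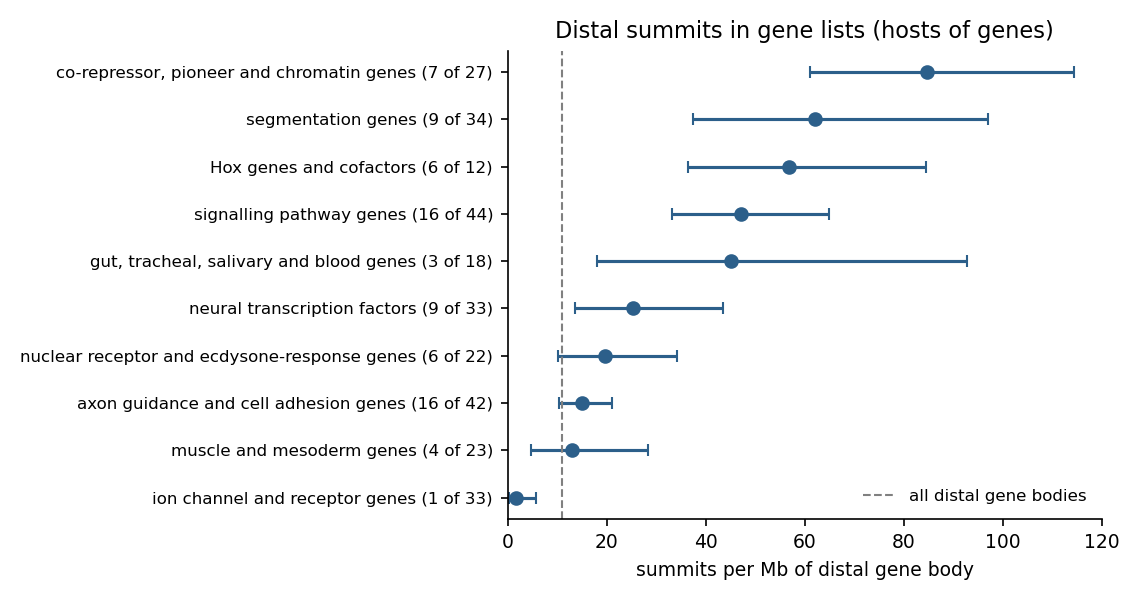
Distal summits per Mb of distal gene body in each gene list (points, with exact Poisson 95% intervals), with hosts and genes that could be hosts in brackets and the 10.9 per Mb of all distal gene bodies dashed. The list of co-repressor, pioneer and chromatin genes stands at 84.6 with jing, sbb and tara in it, and that of ion channel and receptor genes at 1.59.

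The nearest gene was usually the host. For 469 members the nearest TSS was that of a host, and for 148 (24.0%, 20.8 to 27.5) it belonged to another gene, with 23.3% and 23.0% in the lists of replicates 2 and 3. With the TSSs of all annotated genes, non-coding ones included, another gene's was nearest for 36.9% (33.0 to 40.9) of the members found that way. At the centres of the 281310 tiles of distal gene body the nearest protein-coding TSS was another gene's at 38.4%, and no such background was taken for the TSSs of all genes. Of the 148, 75 were nearest to a gene nested in the host, in 41 hosts, and 73 to a gene beyond it. These 148 had 101 nearest genes, led by 2 nested ones, CG15233 in jing with 12 members and Kr in CG9380 with 10. CG14662, beyond the end of its neighbour plh, was nearest to 4 members in plh. BigH1, the embryonic linker histone gene, lies beyond the end of Meltrin and was nearest to 3 members there, and Tango8, nested in sbb, was nearest to 3. Median signals were 85.6 and 55.6 in replicates 2 and 3 where the host was nearest and 81.2 and 55.8 where it was not. The median distance to the nearest TSS was 5850 bp (quartiles 3557 and 10375), against 7467 bp for the tile centres and 6847 bp for distal intergenic peaks. Beyond 30 kb lay 12 members in 8 hosts, among them hth, jing, Ubx and Sema1a.

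Members had other summits nearby about as often as distal intergenic peaks did. Another IDR summit lay within 10 kb of 430 members (69.7%), and of 337 distal intergenic peaks (71.5%), with medians to the next summit of 3728 and 4109 bp. Joined by gaps under 10 kb, members formed 392 runs, of which 269 were a single summit and 50 had at least 3, with 202 members in all. After CG9380 and jing the longest were in tna, 7 summits over 19.4 kb, and CG33158, 6 over 17.3 kb. Overlap of peaks was limited, since 61 members overlapped another IDR peak and the 617 fell into 586 sites over 500 bp apart. A TSS of a non-coding gene lay within 500 bp of 13 members and within 2 kb of 39, and 2 summits lay in an annotated transposable element. No background was taken for the runs or for these last 3 counts, so they cannot be read as many or few.

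By chromosome arm, the density of members was 14.1 per Mb on 2L (128 members) and 14.3 on 2R (138), 10.9 on both 3L (119) and 3R (160), and 6.68 on X (70 members, 5.21 to 8.44). Without CG9380 and jing, 2R had 9.69 per Mb (7.81 to 11.9). Chromosome 4 had 2 members, in 0.763 Mb.

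The core word shown in the sequences marked a minority of members. Its share of 13.1% compared with 10.7% and 11.6% in the lists of replicates 2 and 3, with 2.11% of windows 1 kb to either side of the members and with the 2.06% of tiles. Distal intergenic peaks held it at 16.6% (15.4% and 14.8% in the replicates), peaks 101 to 2000 bp from a TSS at 11.4%, and peaks within 100 bp at 6.22%. In each of the 3 lists the distal intergenic share lay above the members' interval. That interval was 10.7 to 16.0 in the IDR list, 8.52 to 13.3 in replicate 2 and 9.29 to 14.5 in replicate 3. The intervals of the distal intergenic share overlapped these, at 13.5 to 20.2, 12.5 to 18.9 and 11.9 to 18.4 in the same order. Tiles of distal intergenic sequence held the word more often too, at 2.42% against 2.06%. The 3 lists share libraries, and the difference was not tested. The word was centred within 25 bp of the summit in 36 of the 81 and within 50 bp in 63, with a median of 29 bp. The 90 copies lay 42 on the host's strand and 48 on the other, and 7 members had more than 1 copy. Median signals were 76.8 and 55.5 in replicates 2 and 3 with the word and 85.7 and 55.7 without it, each within the quartiles of the other. Of the 50 highest members 8 held it. Split by signal into 3 groups of 205, 205 and 207, highest first, the members held it at 10.2%, 14.6% and 14.5%. Over the whole pooled list the share was 11.2% of distal gene-body peaks at ranks 1 to 500 and 14.9% at ranks 1001 to 2102. It was 3.57% at ranks 20001 to 30000. The 6-letter word AGGGTT, which includes the longer one, was at 18.8% of members and 5.21% of tiles. With any letter in second place, ANGGGTT was at 21.2% of members, 6.81% of tiles and 28.7% of distal intergenic peaks.

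Words of other early factors were read in the same windows on both strands. GAGAGAG, bound by the GAGA factor, was at 8.75% of members, 2.37% of tiles and 5.10% of distal intergenic peaks. Its share was higher than in members among peaks beside promoters, at 11.4%, and among peaks at core promoters, at 12.9%. CAGGTAG, the word of the pioneer factor Zelda, was at 3.73% of members and 1.02% of tiles. Other peaks held it too, at 3.2% of distal intergenic peaks, 3.55% of those beside promoters and 1.33% of those at core promoters. GGATTA, bound by Bicoid, was at 5.51% of members and 6.67% of tiles, and TTTATGG, bound by Caudal, at 5.83% of members and 5.31% of tiles. For both words the share of tiles lay within the interval of the members. In the lists of replicates 2 and 3, distal gene-body peaks held GAGAGAG at 7.39% and 8.22% and CAGGTAG at 4.40% and 3.42%. Distal intergenic peaks of these lists held GAGAGAG at 5.88% and 5.38% and CAGGTAG at 5.48% and 4.09%. The windows of members had a median GC content of 43.8% against 41.8% for tiles, and the tiles were not matched for it. A match shows letters near a summit and not binding of the factor.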

How the data were processed

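Binding of GFP-tagged Kr was measured in whole embryos in 1 group of 2 biological replicates. The authors deposited peak lists in narrowPeak form, and the signal of each peak, the −log10 of its q-value and the summit offset were used as deposited. The largest q among the members was 0.00325. For the aligner, the peak caller and the IDR threshold, names and versions were not given in the sources used here. Peaks were called for each replicate and on pooled reads, per the deposited text lists. No file holds read counts, so depth per sample is unknown. The lists for dm3 were not used.

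Members were found from the dm6 IDR list and the protein-coding genes of Ensembl release 115 (BDGP6), and 13 names in the gene lists were translated to those of that annotation. Replicate values are the nearest summit within 250 bp in the replicate's permissive list. A replicate's own list is its 2102 highest peaks. Backgrounds are exact counts of bases, of tiles as long as the word window or of genes, and sequences are from the RefSeq dm6 genome. Wilson and exact Poisson intervals were computed with Python 3.11.15, numpy 2.4.6 and scipy 1.17.1, and the counting steps were tested on simulated data. No test was made between peaks, since regions are not replicates.

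Named genes are the hosts of the 10 highest members, the 10 hosts with the most summits, up to 4 hosts of each list by signal, the 4 peaks beside the distance limit and members in CG9380. Other genes named were chosen after their values were seen. The members and lists were chosen with earlier results of these data known, in which jing, sbb, tara, hth and Antp had been named.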

Additional observations from a re-analysis of the deposited data

How the results depend on the processing

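No paired analysis was possible because the series holds 1 group and makes no comparison between groups. Of 108 alternative values of the main results 85 moved by less than the counting interval, or, for counts, by less than 1.5 times, and 23 moved further. The cause was not tested except where the setting itself fixes it. With a distance of 5000 bp from every TSS there were 359 members (17.1% of the list), 198 hosts with a median length of 38710.5 bp, 29.0% with another gene's TSS nearest, and 9.78 summits per Mb. With 1000 bp the share was 36.8% and the median host length 26830 bp. With TSSs of all annotated genes, another gene's was nearest for 36.9%, and the density ratio to intergenic sequence was 0.992. Peaks above the median signal of the list gave 309 members, 5.46 per Mb, 197 hosts of 34679 bp in the median, and 89.6% in the top of both replicates. Hosts with at least 2 summits numbered 132, with a median of 42400.5 bp. First introns of the longest transcripts held 44.7%. The core word was at 9.89% within 50 bp and 17.2% within 250 bp, at 18.8% with 6 letters and at 21.2% with any letter in second place, against 6.81% of tiles. Matching within 100 bp gave 50.1% in the top of both replicates. Without either replicate in turn, members numbered 584 to 636, hosts 326 to 327, first introns held 57.5% to 61.8% and the word was at 10.7% to 11.6%. Leaving chromosome Y out of the bases and the free second letter were chosen after seeing the data. Of values for single gene lists 4 moved and 92 did not. Depth is unknown, the signal scale is not given, and 2 replicates give a coarse measure of spread.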
